A study of Mus musculus with 2 samples.

Results

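The imprinted domain of Snrpn and Snhg14 on mouse chromosome 7 was described through 7 genes, Snrpn, Snhg14, Ube3a, Ndn, Magel2, Mkrn3 and Peg12. Every H3K9me3 peak that overlapped the GRCm38 span of one of these genes, or the 5 kb on either side, by at least 1 bp was taken as belonging to the domain. This gave 34 distinct peaks of the 40119 in the list. The data came from sequencing of chromatin precipitated with an H3K9me3 antibody (1 ChIP library) and from 1 control library. The control is called input in one label and IgG in another. Both libraries came from intestinal stem cells, sorted for high GFP and low CD24, of 12 pooled C57BL/6 mice aged 8 weeks. The mice carried the knock-in Lgr5-EGFP-IRES-CreERT2, in which the promoter of the crypt stem cell gene Lgr5 drives GFP and an inducible Cre, and floxed alleles of Setdb1, which encodes an H3K9 methyltransferase. The labels do not say whether Cre had been induced, so whether Setdb1 was intact or deleted is not known. With 1 library on each side and no replicate, no test was made, and the intervals given (exact Poisson for tags, exact binomial for ratios, 95%) cover counting error only. A peak list cannot show which cells were sorted, and the stem cell markers were only looked up in it. Lgr5 had 4 peaks, Axin2 had 5, Smoc2 and Ascl2 had 1 each, and Olfm4 had none. By the same rule 55.6% of all 21770 protein-coding genes had a peak, with lengths not matched.

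Genomic imprinting keeps 1 parental copy of a gene silent. Snrpn, Snhg14, Ndn, Magel2, Mkrn3 and Peg12 are expressed from the paternal chromosome, and loss of the paternal copy of the human domain causes Prader-Willi syndrome. Ube3a is expressed from the maternal copy in neurons, where the long Snhg14 transcript runs antisense to it, and from both copies in most other tissues. The region at the Snrpn start acts as the imprinting centre of the domain, is methylated on the maternal copy, and carries H3K9me3 there in other cell types. H3K9me3 marks silenced chromatin. The list holds no allele information, so the signal of the maternal copy and that of the paternal copy could not be told apart.

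Of the 7 genes, 6 had at least 1 peak, and each of these peaks touched the gene itself, none of them the flank alone. Among the protein-coding genes of the domain, 5 of 6 had a peak, against 55.6% of all 21770 protein-coding genes. The long non-coding RNA gene Snhg14 had 30 peaks, and 34.6% of 12637 lncRNA genes had 1 or more. Snrpn had 8 peaks, which all lie in Snhg14 as well and make up 26.7% of its 30. Ube3a, Ndn, Magel2 and Mkrn3 had 1 peak each, shared with no other of the 7 genes, and Peg12 had none.

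The promoter sequences are shown because they place the peaks relative to the starts of the genes. The 7 genes have 9 distinct start windows of 300 bp in the RefSeq table of GRCm38.p6, which run from 250 bases before to 50 bases after each start. All 7 genes matched by symbol, and Snrpn has 4 starts, the farthest of which it shares with Snhg14. Each window is written 5′ to 3′ in the direction of transcription, with CG dinucleotides, the target of DNA methylation, in capitals.
Snrpn and Snurf start, chr7:60005150-60005449, minus strand: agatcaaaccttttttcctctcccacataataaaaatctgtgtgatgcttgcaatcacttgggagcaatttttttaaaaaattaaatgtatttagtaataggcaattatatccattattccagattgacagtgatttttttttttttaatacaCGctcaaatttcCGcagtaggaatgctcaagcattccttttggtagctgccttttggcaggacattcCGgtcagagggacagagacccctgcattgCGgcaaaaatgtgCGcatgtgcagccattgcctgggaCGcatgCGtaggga
Snrpn upstream start nearest the gene body, chr7:60047929-60048228, minus strand: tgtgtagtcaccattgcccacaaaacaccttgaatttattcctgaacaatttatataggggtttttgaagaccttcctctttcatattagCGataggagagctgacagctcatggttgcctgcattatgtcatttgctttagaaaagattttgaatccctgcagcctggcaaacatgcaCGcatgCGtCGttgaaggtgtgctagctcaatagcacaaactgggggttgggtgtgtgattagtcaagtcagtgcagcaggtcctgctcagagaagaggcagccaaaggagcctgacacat
Snrpn middle upstream start, chr7:60140176-60140475, minus strand: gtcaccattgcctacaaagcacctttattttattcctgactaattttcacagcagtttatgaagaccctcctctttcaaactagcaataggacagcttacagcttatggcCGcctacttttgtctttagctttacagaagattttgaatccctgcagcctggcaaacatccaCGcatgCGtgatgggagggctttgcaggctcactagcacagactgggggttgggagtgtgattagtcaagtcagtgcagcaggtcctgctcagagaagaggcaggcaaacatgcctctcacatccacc
Snrpn and Snhg14 far start, chr7:60450128-60450427, minus strand: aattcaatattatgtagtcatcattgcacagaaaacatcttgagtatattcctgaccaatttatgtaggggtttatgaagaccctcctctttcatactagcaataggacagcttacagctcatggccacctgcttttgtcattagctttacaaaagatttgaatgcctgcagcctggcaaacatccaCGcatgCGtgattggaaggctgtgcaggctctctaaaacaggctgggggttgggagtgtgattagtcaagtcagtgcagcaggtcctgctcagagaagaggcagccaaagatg
Ndn start, chr7:62348027-62348326, plus strand: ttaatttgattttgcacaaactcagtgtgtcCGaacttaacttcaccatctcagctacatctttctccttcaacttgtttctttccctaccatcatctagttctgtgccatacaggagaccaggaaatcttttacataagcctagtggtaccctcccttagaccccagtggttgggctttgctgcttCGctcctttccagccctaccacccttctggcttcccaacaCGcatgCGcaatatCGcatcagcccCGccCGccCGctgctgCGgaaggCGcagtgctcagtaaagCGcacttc
Mkrn3 start, chr7:62420104-62420403, minus strand: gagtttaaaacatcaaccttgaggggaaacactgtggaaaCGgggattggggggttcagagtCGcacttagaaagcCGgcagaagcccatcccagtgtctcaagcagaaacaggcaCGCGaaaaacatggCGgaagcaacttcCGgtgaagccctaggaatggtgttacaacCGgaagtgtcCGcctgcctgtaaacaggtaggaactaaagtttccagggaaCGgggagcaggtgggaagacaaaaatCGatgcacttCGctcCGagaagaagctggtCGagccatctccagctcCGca
Magel2 start, chr7:62376729-62377028, plus strand: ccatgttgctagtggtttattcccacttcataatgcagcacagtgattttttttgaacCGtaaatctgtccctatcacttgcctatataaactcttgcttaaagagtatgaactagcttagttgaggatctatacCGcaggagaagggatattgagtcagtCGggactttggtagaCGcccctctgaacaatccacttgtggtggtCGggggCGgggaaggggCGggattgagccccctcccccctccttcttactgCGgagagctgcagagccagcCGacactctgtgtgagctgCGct
Peg12 start, chr7:62464461-62464760, minus strand: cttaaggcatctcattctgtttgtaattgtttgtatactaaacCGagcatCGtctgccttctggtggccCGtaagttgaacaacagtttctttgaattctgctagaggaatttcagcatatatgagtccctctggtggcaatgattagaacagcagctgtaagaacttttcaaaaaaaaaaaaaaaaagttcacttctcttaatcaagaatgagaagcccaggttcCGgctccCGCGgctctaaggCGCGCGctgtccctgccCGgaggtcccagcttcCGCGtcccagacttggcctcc
Ube3a start, chr7:59228500-59228799, plus strand: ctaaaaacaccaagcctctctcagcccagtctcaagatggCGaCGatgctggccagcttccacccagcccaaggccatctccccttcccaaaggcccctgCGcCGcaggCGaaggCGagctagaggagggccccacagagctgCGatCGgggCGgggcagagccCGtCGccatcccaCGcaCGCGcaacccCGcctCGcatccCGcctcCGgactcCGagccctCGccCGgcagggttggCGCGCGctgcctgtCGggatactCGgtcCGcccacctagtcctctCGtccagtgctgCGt

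A peak overlapped 4 of these 9 windows, those of Ube3a, Ndn, Mkrn3 and the Snrpn and Snurf start, while peaks overlapped 13% of the 32817 windows in the table. The Ube3a window was overlapped over its whole 300 bp, the Ndn window over 228 bp and the Mkrn3 window over 158 bp. The Snrpn and Snurf window was overlapped over its last 21 bp only. Its start lay 29 bp upstream of the peak edge, so the peak extended into the gene. The Magel2 window was not touched, and its start lay 329 bp from the peak edge. The nearest peak to the Peg12 start lay 44.2 kb away. The 3 upstream starts of Snrpn had no peak on them, with the nearest at 30.8 kb, 15.6 kb and 34.3 kb from the starts at 60047978, 60140225 and 60450177.

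The windows under peaks differed in their CG content. The Ube3a window held 29 CG, and 12.9% of all windows held as many or more. Mkrn3 had 15, Peg12 12, Ndn 11 and Magel2 10. The Snrpn and Snurf window held 7, and the upstream Snrpn windows held 4, 3 and 2. Those 3 upstream windows were 79.7 to 81.4% identical to each other over aligned columns, and 49.4 to 52.04% identical to the Snrpn and Snurf window. The domain windows that a peak overlapped therefore ran from 7 to 29 CG, and those without a peak from 2 to 12.

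The motif TGCCGC, known as the sequence bound when methylated by ZFP57, a zinc finger protein that keeps imprints, was searched on both strands. It was found in 1 of the 9 windows, that of the Snrpn and Snurf start, with its first base at position -2 (the start counted as 0), and in 11.6% of all windows. In that window it lay outside the peak, whose edge was 29 bp past the start. The palindrome CGCATGCG, the core of the motif of the activator NRF1, was searched after it had been seen in the printed windows. It occurred in 5 of the 9, the 4 Snrpn windows and that of Ndn, and in 1.86% of all windows. The 3 upstream Snrpn windows are 79.7 to 81.4% identical to each other, so the matches in these 3 are not separate occurrences. The Snrpn and Snurf window is 49.4 to 52.04% identical to those 3, and the Ndn window was not aligned. In the Snrpn and Snurf window the palindrome began at position 36 and lay within the bases under the peak. In the Ndn window it began at position -23 and lay under the peak too. In the 3 upstream Snrpn windows, where no peak was called, it began at positions -71, -78 and -63. These matches are letters in a window and were not tested for binding.

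Snrpn encodes a core protein of the splicing machinery, and its first exons also encode the small protein Snurf. Its span in the gene table (chr7:59982495-60450177, minus strand, gene ID 20646) reaches 468 kb because the upstream starts are included. The peak at the Snrpn and Snurf start (chr7:60003890-60005170) held 29.5 ChIP tags (interval 19.8 to 42.2) beside 1.5 control tags. Its normalized tag count, the authors' scaled value in which 1 tag is worth 1.05, was 30.9, and 22.1% of the peaks in the list were at least as tall. The authors' fold over control, which compares ChIP tags scaled to the control library with control tags, was 13.46. The peak lay in the 22.7 kb span of Snurf, where it was the only one.

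The other 7 peaks of Snrpn lay in the 445 kb upstream of the Snurf span. The tallest (chr7:60162422-60164176) had 85.5 ChIP tags (68.3 to 106) beside 4.5 control tags, a normalized tag count of 89.6 and a fold of 13.00. It was the only peak of Snrpn among the strong peaks, a name used here for the top 10% of the list, with at least 50.8 normalized tags. The next in height was at chr7:60350579-60351806 with 45.0 normalized tags and 4.5 control tags. The peak at chr7:60322052-60323101 had the highest fold of the domain, 39.69, from 29 ChIP tags beside the lowest control value of the list, 0.5 tag. A fold at that value depends on the floor. The remaining 4 ranged from 9.43 to 33.0 normalized tags. Summed over the 8 peaks of Snrpn, the ChIP library held 256.5 tags and the control 17.5, a ratio after scaling of 10.03 (6.18 to 17.3).

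Snhg14 is the long RNA that hosts the snoRNAs of the domain, small nucleolar RNAs that are cut from its introns. Its span (chr7:59272737-60450177, minus strand, gene ID 52480) covers 1177 kb. No other lncRNA gene in the table had as many peaks as its 30, a count not adjusted for length. These peaks covered 2.60% of the span, and 15.1% of the lncRNA genes were covered at least as much. Of the 30, 8 were strong (26.7%), where strong peaks make up 10.1% of the list by definition. Their positions were uneven. Along the gene, 19 peaks lay in 1 stretch of 231 kb, 2 lay in another of 271 kb, 1 between the first stretch and Snrpn, and 8 in the Snrpn span.

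**Figure D1:**
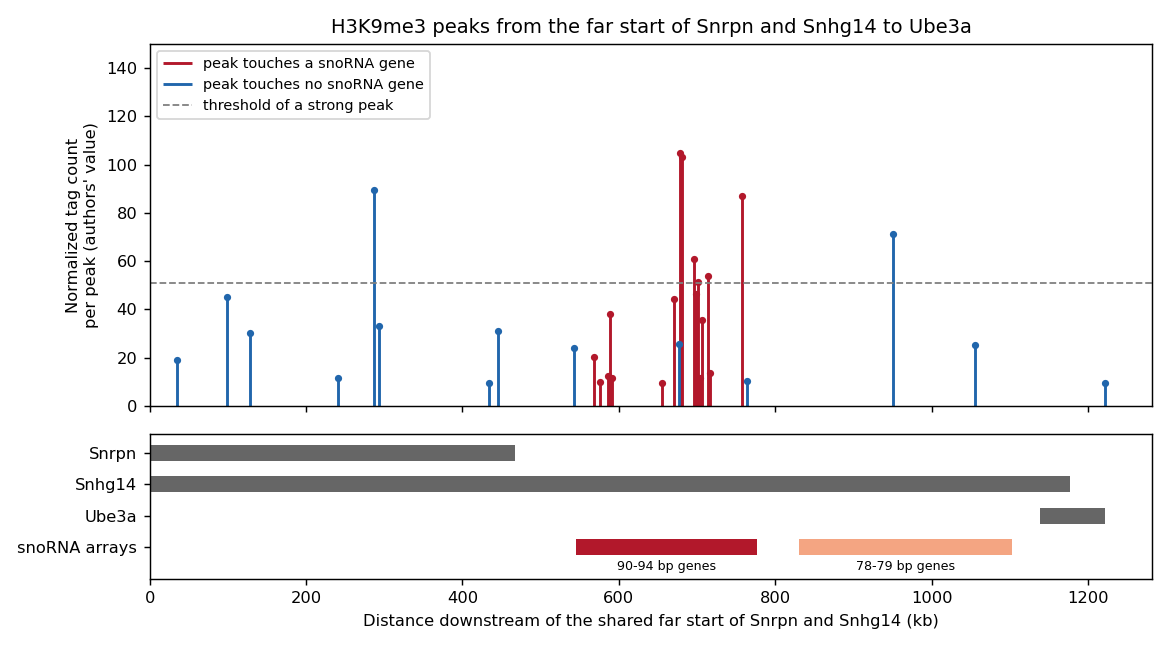
Each line is a peak placed by its distance downstream of the start shared by Snrpn and Snhg14 (x axis, kb), with its height as the authors' normalized tag count (y axis). Red peaks touch an annotated snoRNA gene and blue ones do not, the dashed line is the threshold of 50.8 for a strong peak, and bars below show the genes and the snoRNA arrays. The red peaks fall together in the array of 90-94 bp genes, with 6 of them above the threshold, and the 78-79 bp array holds 2 peaks, both blue.

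The stretch of 231 kb (chr7:59673461-59904848) is an array of 70 annotated snoRNA genes of 90 to 94 bp, spaced by a median of 2528 bp. Of these, 18 carry Snord116 as symbol or synonym in the gene table. Its 19 peaks gave 82.1 peaks per Mb, and they covered 7.80% of the array. In all, 17 of the 19 touched a snoRNA gene, and 17 of the 70 snoRNA genes (24.3%) were touched. In the whole table, with these 17 included, 29 of the 1330 snoRNA genes (2.18%) were touched, a share not adjusted for the density of peaks. The array peaks had a median width of 910 bp, so some would touch a gene wherever they lay. That share was not computed, so 17 of 19 stands without a baseline. The stretch of 271 kb (chr7:59347681-59619095) holds 132 snoRNA genes of 78 to 79 bp, spaced by a median of 1871 bp. It had 2 peaks or 7.37 per Mb, and neither touched any of the 132. The taller of that pair (chr7:59498717-59501254) was strong, with 68 ChIP tags (52.8 to 86.2) beside 4.5 control tags. The other had 24 ChIP tags beside 0.5 control tag.

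In the 90-94 bp array, the snoRNA gene lay wholly inside the peak for 16 of the 17 peaks that touched one. Of the 19 peaks, 16 lay in 3 runs in which neighbours were at most 10 kb apart. The run of 7 peaks (chr7:59733313-59754595) had a median step of 2646.5 bp between the centres of neighbouring peaks, with a range from 2266 to 7506 bp. The run of 4 (chr7:59768409-59779711) had a median step of 2571.5 bp, with a range from 2178 to 5351.5 bp. The run of 5 (chr7:59858859-59882551) had a longer median step, 5179 bp, with a range from 2511 to 10118 bp, and lower peaks, from 9.95 to 38.2 normalized tags.

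The tallest peaks of Snhg14 were neighbours in the run of 4. The peak at chr7:59770903-59772229 had 100 ChIP tags (81.4 to 122) beside 14 control tags, a normalized tag count of 104.8 and a fold of 4.89. The peak at chr7:59768409-59769580 had 98.5 ChIP tags (80.01 to 120) beside 12 control tags, a normalized tag count of 103.2 and a fold of 5.62. Of the list, 1.90% and 1.98% of peaks were at least as tall as these, and their control counts, the highest of the domain, were reached by 0.496% and 0.663% of peaks. The other strong peaks of the array had fewer tags. The one at chr7:59690755-59693665 had 87.0 normalized tags and 4.5 control tags, with a fold of 12.62. The strong peaks starting at 59753588, 59735655 and 59748590 had 60.8, 54.0 and 51.3 normalized tags beside 8, 6.5 and 4.5 control tags, and folds of 4.96, 5.42 and 7.45. Just under the threshold stood the array peak that starts at 59750978, with 46.6 normalized tags.

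**Figure D2:**
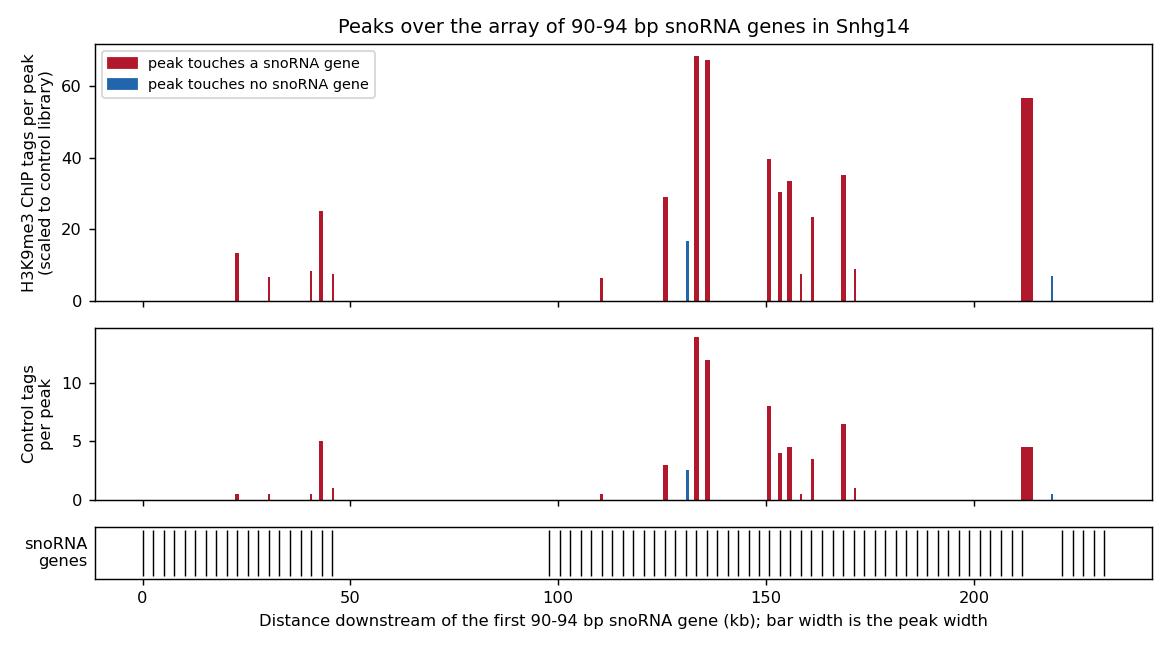
Peaks of the 90-94 bp snoRNA array by distance downstream of its first snoRNA gene (x axis, kb), with ChIP tags scaled to the control library (top panel) and control tags (middle panel) per peak, and the snoRNA genes as ticks (bottom panel). The peaks with most ChIP tags, 68.4 and 67.4 after scaling, are also those with most control tags, 14 and 12.

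Summed over peaks, control tags per kb were higher under the peaks on snoRNA genes. The 17 domain peaks that touched a snoRNA gene held 41.01 ChIP tags per kb of peak (38.0 to 44.2), and the 17 that touched none held 28.6 (26.3 to 30.9). Control tags per kb were 4.18 (3.25 to 5.28) on snoRNA genes and 1.78 (1.26 to 2.45) off them. The scaled ratio of ChIP to control tags was 6.72 (5.24 to 8.73) on snoRNA genes and 10.98 (7.89 to 15.7) off them, so its intervals overlapped while those of both densities did not. These intervals treat the summed tags of a group as 1 count and leave out the spread between peaks. Of the 69.5 control tags on snoRNA genes, 2 neighbouring peaks held 14 and 12. Per peak, the median was 3.5 control tags on snoRNA genes and 2.5 off them. In each group 5 of the 17 peaks (29.4%) stood at the lowest control value. The peaks on snoRNA genes carried 53.2% of the ChIP tags of the domain. The snoRNA genes are repeated copies, and how the authors' alignment treated reads that match several copies is not given in the sources used here; its part in these values was not tested.

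Ube3a encodes the ubiquitin ligase lost in Angelman syndrome. Its span (chr7:59228750-59310837, plus strand, gene ID 22215) had 1 peak, at the start (chr7:59228376-59228876), which touched the first 127 bp of the gene. It held 9 ChIP tags (4.12 to 17.1) beside 0.5 control tag, or 9.43 normalized tags. That is the lowest height in the list, shared by 3544 peaks (8.83%), and the peak had the width of 500 bp that 31.9% of peaks have. No peak lay in the 38.1 kb where Ube3a and Snhg14 overlap. The next peak outside the window, 18.4 kb before the gene, had 66.0 normalized tags.

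Ndn, Magel2, Mkrn3 and Peg12 are short genes that stand together about 1.9 Mb from Snrpn. Of the 4, 3 had a peak, where 36.2% of protein-coding genes shorter than 5 kb had one, and 1 had a strong peak, where 4.52% of such genes had one. Magel2 (chr7:62376979-62381640, plus strand, gene ID 27385) encodes a MAGE family protein known from human cells to regulate endosomal protein sorting. Its peak (chr7:62377308-62381372) was the tallest and the widest of the domain, at 4064 bp, with 112 ChIP tags (92.2 to 135) beside 3.5 control tags. The normalized tag count was 117.3 and the fold 21.90, a ratio whose counting interval ran from 7.85 to 92.2. In the list, 1.45% of peaks were as tall or taller and 0.556% were as wide or wider. Per kb of peak it held 27.6 ChIP tags, and 23.4% of the peaks of the list held as many or more.

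Ndn (chr7:62348277-62349928, plus strand, gene ID 17984) encodes necdin, a MAGE family protein of neurons. Its peak (chr7:62348099-62349299) spanned the start and had 40.5 ChIP tags (29.0 to 55.05) beside 3 control tags, with 42.4 normalized tags and a fold of 9.24. Mkrn3 (chr7:62417593-62420153, minus strand, gene ID 22652) encodes a ubiquitin ligase that in humans restrains the onset of puberty. Its peak (chr7:62418912-62420261) also spanned the start and had 34 ChIP tags (23.5 to 47.5) beside 2.5 control tags, with 35.6 normalized tags and a fold of 9.31. The intervals of the total tags of Ndn and Mkrn3 overlapped each other, and that of Magel2, a wider peak, lay above both. Per kb of peak, all 3 intervals overlapped. Magel2 held 27.6 ChIP tags per kb (22.7 to 33.2), Ndn 33.75 (24.2 to 45.9) and Mkrn3 25.2 (17.5 to 35.2). Peg12 (chr7:62461871-62464510, minus strand, gene ID 27412) encodes a member of the FRAT family, which binds GSK3. No peak was called on it, which at this depth says only that no region there reached the caller's threshold, and the lowest peak of the list held 9 tags.

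Of the 4 short genes, Peg12 was not covered at all. In the other 3, the peak covered 87.2% of Magel2, 61.9% of Ndn and 48.5% of Mkrn3. Among the 4973 protein-coding genes shorter than 5 kb, 1.89% were covered at least as much as Magel2, 4.24% as much as Ndn and 6.03% as much as Mkrn3. By contrast 1.78% of the Snrpn span and 0.155% of the Ube3a span were covered.

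**Figure D3:**
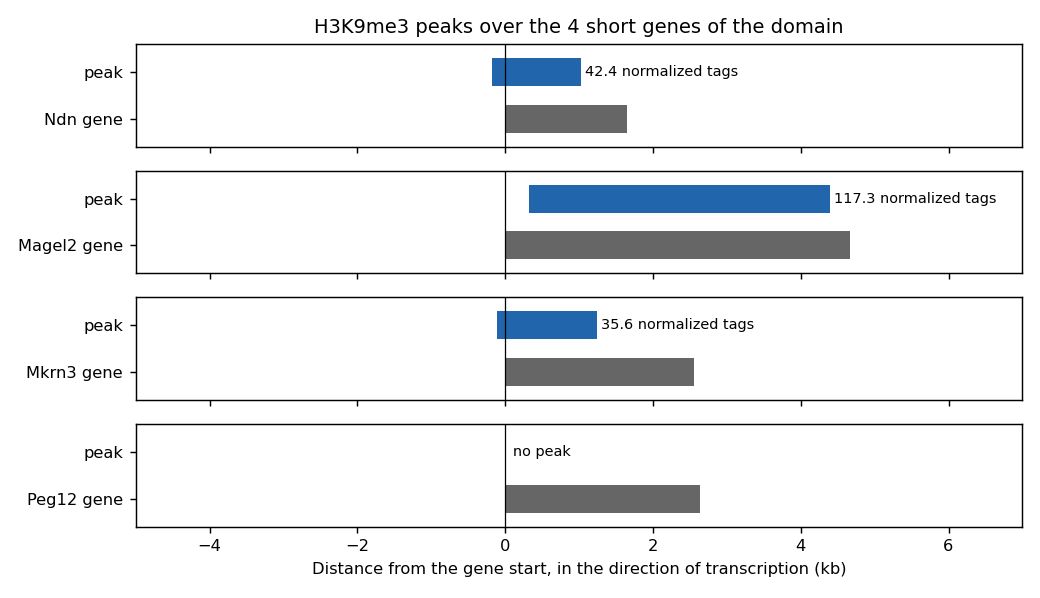
Position of the gene (grey) and of its H3K9me3 peak (blue) by distance from the gene start in the direction of transcription (x axis, kb), for Ndn, Magel2, Mkrn3 and Peg12. The peaks of Ndn and Mkrn3, with 42.4 and 35.6 normalized tags, cross the start, that of Magel2 with 117.3 begins inside the gene, and Peg12 has none.

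Taking the 34 peaks together, the median normalized tag count was 31.95 in the domain and 17.3 in the list. The median width was 973.5 bp in the domain and 769 bp in the list. Strong peaks numbered 9 of 34 (26.5%), against 10.1% of the list. Control tags were higher too, with a median of 2.5 in the domain and 1 in the list, and 10 of the 34 (29.4%) stood at the lowest control value, against 43% of the list. A fold of at least 8 was reached by 19 of 34 (55.9%), against 79.4% of the list. The scaled ratio of ChIP to control tags was 8.21 (6.74 to 10.1) over the domain and 10.2 over all peaks. The peaks were therefore taller than those of the list at its median, and their ratio over control was not higher.

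The windows of the domain, 1283 kb in all, held 26.5 peaks per Mb, against 19.2 on chromosome 7 and 15.4 on the autosomes. Peaks covered 2.94% of them, against 1.76% of chromosome 7 and 1.41% of the autosomes. The domain windows are gene spans with flanks, while the chromosomes were counted up to the end of their last peak, stretches without genes included. Densities over the spans of all genes were not computed. With the 90-94 bp snoRNA array left out, its 19 peaks and its length alike, the other 1052 kb held 15 peaks or 14.3 per Mb (7.98 to 23.5), an alternative chosen after the values were seen. That was 0.926 times the density of the autosomes, against 1.72 times for all windows. Outside the array 3 strong peaks were left, in Snrpn, in the 78-79 bp array and on Magel2.

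**Figure D4:**
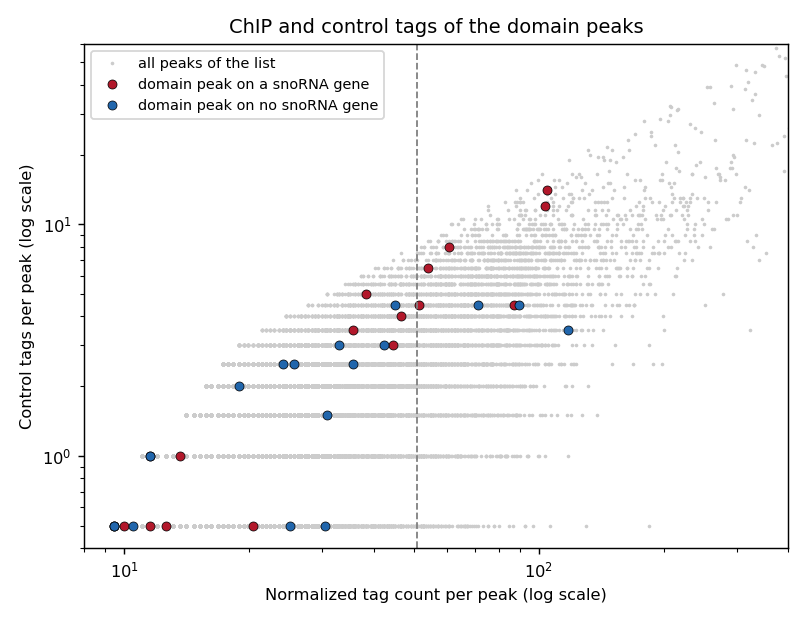
Normalized tag count (x axis, log scale) and control tags (y axis, log scale) of each peak of the list (grey) and of the domain, in red where the peak touches a snoRNA gene and in blue where it does not. The dashed line marks 50.8 normalized tags. The 2 red points with 14 and 12 control tags are the highest of the domain, the blue point at 117.3 with 3.5 control tags is Magel2, and 85 peaks of the list lie outside the axes.

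The genes around the domain were looked up from a list that includes Snurf, Ipw and Snord64 inside it and the genes on either side. Of the 22 protein-coding genes among these 24, 18 (81.8%) had a peak and 3 had a strong one, against 55.6% and 6.61% of all protein-coding genes. Their lengths were not matched. Gabrg3, which encodes a GABA receptor subunit and spans 671 kb, had 12 peaks, 3 of them strong, and its tallest (chr7:56920618-56925537) had 137.5 ChIP tags (115 to 162) beside 5 control tags. Klf13, a zinc finger transcription factor gene, had 5 peaks of up to 23.0 normalized tags, and Apba2, an adaptor protein gene of neurons, had 3. Nipa2, a magnesium transporter gene, had 2, the taller with 115.5 ChIP tags (95.4 to 139) beside 2.5 control tags. Atp10a, a flippase gene next to Ube3a, had 1 peak of 9.95 normalized tags. Ipw, Snord64, Nipa1, Tubgcp5, Fan1 and Nsmce3 had none, and the 13 genes of the Mir344 family, between Snrpn and Ndn, had none either, where 33% of the 1228 miRNA genes of the table had one. Tall peaks were therefore also found on genes outside the imprinted domain on the same chromosome.

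Other imprinted domains were set beside this one by the same rule. Genes of the Dlk1-Meg3 domain had 11 peaks, 1 of them strong, with a median of 19.9 normalized tags and a highest of 108.4. Genes of the Kcnq1 domain had 11 peaks, 2 of them strong, with a median of 19.4 and a highest of 69.1. The Peg3 domain had 7 peaks, 1 strong, with a median of 19.4 and a highest of 142.0. Gnas had 4 peaks, 2 strong, with a median of 67.05 and a highest of 212.1. The tallest peak of the Snrpn and Snhg14 domain, 117.3, thus stood below those of Gnas and Peg3 and above those of Dlk1-Meg3 and Kcnq1, and it had 9 strong peaks over longer windows.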

How the data were processed

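H3K9me3 ChIP-seq gave 1 peak list. The submitters' processing notes name Bowtie2 2.2.8, HOMER 4.10.1 and the build GRCm38 (mm10), while settings are not given here. Per the file headers, the columns are those of the peak caller. Normalized tag counts, as deposited, are a signal scaled to an unstated library total, and the deposited control tags are an unscaled signal. The deposited fold is a ratio of scaled ChIP tags to control tags, at least 4 in every peak. The deposited p-value and score of each peak are the caller's, and the score was used only to filter peaks. Heights, folds and widths printed are the authors' own values.

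Tags were recovered from the spacing of low values: 0.5 tag is worth 0.524, and 100% of 30961 values under 30 were whole steps within a tolerance of 0.1. The control library had 0.684 of the ChIP tags. Gene spans and promoter windows came from RefSeq GRCm38.p6, and 49591 genes with chromosome positions were kept. Apart from the promoter windows no genome sequence was used, and exons were not analysed here. Ratio intervals treat ChIP and control tags as counts (exact Clopper-Pearson). Genes were named when they were members of the domain or had most peaks in the neighbour and imprinted lists, and the neighbours without a peak were added after their values were seen. The members and lists were chosen with earlier results of these data known. Functions were tested on simulated data. Python 3.11.15, pandas 2.3.3 and SciPy 1.17.1 were used. Alternatives were other flanks, overlap rules and thresholds, merged peaks, other backgrounds, and peaks on snoRNA genes or their array left out, the last 2 chosen after the data were seen.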

Additional observations from a re-analysis of the deposited data

How the results depend on the processing

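A count is taken as moved when it changed by over 1.5 times, and a median, ratio or density when it left the counting interval of its main value. By this rule 12 of 61 alternative values moved. Of the 61, 35 were peak counts of single genes, many of them with 1 peak or none, and 4 of those 35 moved. The larger part of the moves was thus among the values for the domain as a whole. The number of genes with a peak was 6 throughout, except for 5 when only peaks at or above the median score were kept, where Ube3a lost its peak and Snrpn kept 5. Flanks of 0 or 10 kb and the peak centre rule changed no count of peaks. With a fold of at least 8, the 34 peaks became 19, with 15 in Snhg14 and 4 in Snrpn. The strong peaks, 9 at the top 10%, were 5 at the top 5% and 17 at the top 20%. With peaks on snoRNA genes left out, chosen after the data were seen, the domain had 17 peaks and 3 strong peaks, a ratio of ChIP to control of 10.98, and a density of 0.860 times that of the autosomes in place of 1.72, which is arithmetic, since the window length was kept. With the 90-94 bp array left out with its length, also chosen after the data were seen, the density was 0.926 times that of the autosomes. The counts under other thresholds follow from those thresholds, and the cause of the change in ratio was not tested. Low peaks rest on as few as 9 tags, and control tags of 0.5 leave their folds without a stable value. No paired analysis was possible because each group has 1 library and the result comes from no test, and for the same reason no library could be left out.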

Other observations

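The 1888 kb between the windows of Snrpn and Ndn held 18 peaks, or 9.53 per Mb, against 26.5 per Mb in the windows of the domain. Outside the 90-94 bp snoRNA array, an alternative chosen after the values were seen, those windows held 14.3 per Mb (7.98 to 23.5). The autosomes held 15.4 per Mb. Of the 18 peaks in between, 5 were strong (27.8%), against 26.5% in the windows of the domain and 10.1% of the list. The tallest (chr7:61181965-61184038) lay in the gene A230006K03Rik and had 102 ChIP tags (exact Poisson 95% interval 83.2 to 124) beside 7 control tags. A peak at chr7:60767569-60769427, on no annotated gene, had 60.5 ChIP tags (46.2 to 77.8) beside 1 control tag, an authors' fold of 41.40, and another at chr7:60775343-60776634 had 70 ChIP tags (54.6 to 88.4) beside 4 control tags. In B230209E15Rik a peak had 66.5 ChIP tags beside 5.5 control tags. The fifth strong peak (chr7:62334646-62336097) lay 12.2 kb before Ndn, 7.18 kb outside its window, with 60 ChIP tags beside 5 control tags. The median normalized tag count of the 18 was 15.2, and the ratio of ChIP to control tags was 11.07 (7.89 to 16.01).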
